A study of Mus musculus with 23 samples.

Results

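The 38 genes described here belong to the interferon response and to the immunoproteasome with its class I antigen presentation partners. They were named one by one as a list (Isg15, the Ifit, Oas, Irf, Gbp and Psmb genes and others), by a choice made with earlier results of these data known, and all 38 were found among the 14500 genes of the deposited table. All 38 also reached an FPKM (a fragment level corrected for the length of the gene and the depth of the library) of at least 1 in at least 2 libraries, as did 12820 genes in all. By role the list holds 3 sensors, 3 signalling factors, 20 effectors, 5 GTPases and 7 genes of the immunoproteasome and antigen presentation.

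Interferons are cytokines that cells release when foreign or misplaced nucleic acid is sensed by proteins such as RIG-I and MDA5. Type I interferon acts through a receptor whose signal reaches a complex that holds STAT2 and IRF9, which binds the interferon-stimulated response element (ISRE) of target genes, whereas interferon gamma has a receptor of its own, and many of its target genes carry the gamma-activated site (GAS). The target genes encode antiviral effectors, GTPases that attack pathogen vacuoles, and the inducible catalytic subunits that replace their constitutive counterparts in the immunoproteasome, which cuts peptides for display on class I molecules. Resting skeletal muscle fibres are known for low levels of class I molecules, and immune and endothelial cells of the tissue express these genes as well.

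The RNA came from tibialis anterior, a shin muscle made mostly of fast fibres, of female C57BL/6 mice fed ad libitum, at zeitgeber time 0 (ZT0, lights on) and 12 (ZT12, lights off). Wild-type mice gave 4 sham libraries at ZT0 (aged 13 to 18 weeks), 3 at ZT12 (12 to 18 weeks), and 4 libraries from 6-OHDA muscle at ZT0 (15 to 16 weeks) and 4 at ZT12 (12 to 15 weeks). RE-RE mice carry a stopped Bmal1 (Arntl) allele in both copies, Bmal1(stopFL/stopFL), with Syt10-Cre and Hsa-Cre, which switch this clock gene back on in neurons that include the suprachiasmatic nucleus and in skeletal muscle. They gave 2 sham libraries at ZT0 (10 to 11 weeks), 2 at ZT12 (11 weeks), and 2 from 6-OHDA muscle at each time (12 to 16 weeks at ZT0, 15 to 18 weeks at ZT12), and cells outside the reach of both Cre lines keep the stopped allele. 6-OHDA (6-hydroxydopamine), which destroys sympathetic nerve terminals, was given by repeated intramuscular injection at 50 mg/kg, and the sham muscle was not injected, so that injection and toxin cannot be told apart. The labels do not say whether each library came from a separate animal, so p-values measure the spread between these libraries, which may be technical.

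Depth, recovered from the deposited values as whole reads, was 21.1 to 36.1 M reads in each library (median 28.1 M), and 17 of the 38 genes had under 100 reads in some library, with 8 as the lowest (Oas1a). Arntl itself was present in RE-RE muscle, at 11.0 to 14.3 FPKM in sham libraries at ZT0 against 11.7 to 15.7 in wild-type sham at that time. At ZT12 it was higher in RE-RE than in wild-type libraries without overlap. It stood there at 2.83 to 4.07 against 1.94 to 2.22 FPKM in sham, and 2.37 to 3.97 against 1.23 to 1.73 with 6-OHDA. Across all genes the median residual SD on the log2 scale was 0.216 in wild-type and 0.451 in RE-RE groups, and for the 38 genes it was 0.293 and 0.442, so that tests with 1 shared spread understate the error in RE-RE muscle. Wild-type 6-OHDA ZT0 library 1 was the highest of its 4 for 29 of the 38 genes (29.0% of all genes tested) and wild-type sham ZT0 library 2 the highest of its 4 for 32 (31.5%), so both are followed below. Reads of near-identical copies (the Oas1, Ifit, Gbp and Ifitm clusters, and H2-K1 with H2-D1) may have been split or lost in counting, and whether counting used strand is not given in the sources used here.

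Promoter sequences from RefSeq on GRCm38.p6 (250 bases before to 50 after each start) matched 33 of the 38 genes. The ISRE was searched as GAAA, any 2 bases and GAAA again, and the GAS as TTCNNNGAA, each on both strands, and overlapping matches were counted. The ISRE letters occurred in 17 of the 33 genes (51.5%) against 3.99% of 27025 mouse genes with such a window, and the GAS letters in 9 of 33 (27.3%) against 9.55%. Both motifs occurred in 6 of the 33 genes, neither in 13, and 8 held at least 2 ISRE matches. Stretches of 100 bases are shown for 9 genes whose levels are described below, in the direction of transcription. Capitals mark the ISRE and GAS matches.

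The effectors Isg15, at chr4:156200819-156200918 (minus strand, 100 to 1 bases before the start), Ifit1, at chr19:34640769-34640868 (plus strand, 120 to 21 bases before the start), Ifit3, at chr19:34583359-34583458 (plus strand, 170 to 71 bases before the start), Oas1a, at chr5:120907526-120907625 (minus strand, 100 to 1 bases before the start), and Bst2, at chr8:71537523-71537622 (minus strand, 150 to 51 bases before the start), show 2 or more ISRE matches each, and Oas1a and Bst2 a GAS match as well.
Isg15: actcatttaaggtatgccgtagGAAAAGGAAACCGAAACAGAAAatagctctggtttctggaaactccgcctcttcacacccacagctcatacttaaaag
Ifit1: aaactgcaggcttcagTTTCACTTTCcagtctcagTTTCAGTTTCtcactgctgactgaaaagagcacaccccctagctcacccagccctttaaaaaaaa
Ifit3: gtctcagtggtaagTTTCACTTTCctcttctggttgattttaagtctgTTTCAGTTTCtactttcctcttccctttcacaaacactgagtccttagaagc
Oas1a: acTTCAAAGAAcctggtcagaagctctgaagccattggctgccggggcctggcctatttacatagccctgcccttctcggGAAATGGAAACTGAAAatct
Bst2: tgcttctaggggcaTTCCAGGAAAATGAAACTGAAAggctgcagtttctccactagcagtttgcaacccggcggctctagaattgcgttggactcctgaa

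The GTPase genes Gbp3, at chr3:142559944-142560043 (plus strand, 100 to 1 bases before the start), and Igtp, at chr11:58199456-58199555 (plus strand, 100 to 1 bases before the start), are shown because both hold the ISRE letters but differ in their values with 6-OHDA. Psmb8, at chr17:34198095-34198194 (plus strand, 100 to 1 bases before the start), and B2m, at chr2:122147537-122147636 (plus strand, 150 to 51 bases before the start), are shown as an inducible proteasome subunit with a GAS match alone and a class I subunit with an ISRE match alone.
Gbp3: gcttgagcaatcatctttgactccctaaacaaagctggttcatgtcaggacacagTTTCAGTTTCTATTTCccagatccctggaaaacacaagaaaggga
Igtp: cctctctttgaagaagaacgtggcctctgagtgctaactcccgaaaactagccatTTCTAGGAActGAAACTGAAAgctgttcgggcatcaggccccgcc
Psmb8: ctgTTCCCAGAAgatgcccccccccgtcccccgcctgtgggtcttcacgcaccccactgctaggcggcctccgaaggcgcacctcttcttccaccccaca
B2m: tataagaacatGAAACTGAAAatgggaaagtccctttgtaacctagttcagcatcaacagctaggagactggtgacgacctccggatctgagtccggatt

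The genes were then counted by motif, with the test described below. In wild-type muscle 8 of the 17 genes with the ISRE letters and 9 of the 16 without them passed as higher with 6-OHDA, against 18.8% of all genes, with median log2 differences of 0.44 and 0.54. For the GAS letters the counts were 6 of 9 with and 11 of 24 without. In RE-RE muscle, against 11.9% of all genes, 8 of 17 with and 11 of 16 without the ISRE letters passed as higher, and 4 of 9 with and 15 of 24 without the GAS letters. Tap1 and Psmb9 are transcribed in opposite directions from starts 226 bases apart on chromosome 17, in windows that hold neither motif.

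In wild-type muscle 19 of the 38 genes were higher with 6-OHDA and none was lower. The test was limma on log2(FPKM + 0.01), with the mean of both times, and a Benjamini-Hochberg adjusted p under 0.05 over all 12820 genes. Among all genes 18.8% passed as higher and 15.9% as lower, so the list's 19 of 38 stood above the background and its count of lower genes, 0, below it. The median log2 difference of the list was 0.54 against -0.04 for all genes, and 37 of 38 values were above 0. Those that rose were 2 of 3 sensors, 1 of 3 signalling factors, 10 of 20 effectors, 2 of 5 GTPases and 4 of 7 genes of the immunoproteasome and antigen presentation. In bulk tissue fewer cells of a type and less RNA per cell cannot be told apart. Rescaling each library to its own total of recovered reads shifted the median of all genes to 0.29 and the median of the list to 0.87, by the same amount for every gene of a library. Under that scaling 35 of the 38 passed as higher, and the split of all genes was 5115 higher and 464 lower in place of 2414 and 2044.

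**Figure D1:**
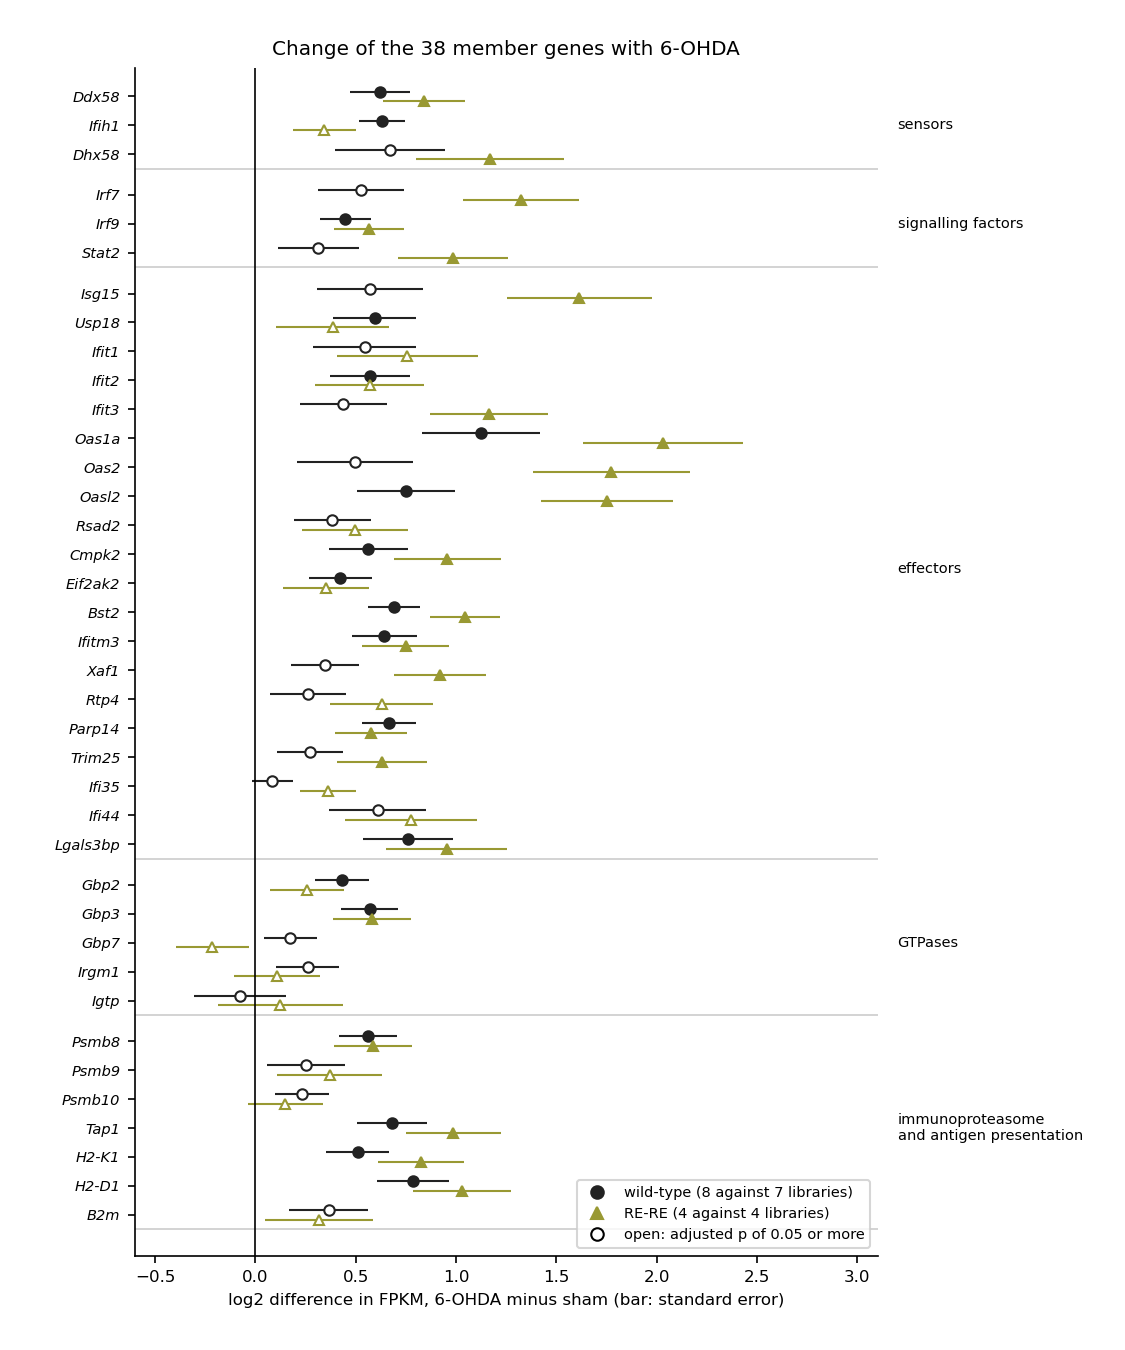
Log2 difference in FPKM, 6-OHDA minus sham, for each of the 38 genes in wild-type (black circles, 8 against 7 libraries) and RE-RE muscle (olive triangles, 4 against 4), with bars for the standard error and open symbols where the adjusted p was 0.05 or more. In wild-type muscle 37 of 38 points lie right of 0 and 19 are filled, and in RE-RE muscle 22 are filled under an error shared with wild-type muscle, none of them when RE-RE libraries were fitted alone.

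The RNA sensors were low genes. Ddx58 (ENSMUSG00000040296, chr4:40203773-40239828, minus strand, on GRCm38 with GENCODE M21 models as for all genes below) encodes RIG-I, which detects viral RNA by its triphosphate end. Ddx58 in wild-type sham libraries stood at 1.35, 1.92, 1.21 and 1.48 FPKM at ZT0 and 1.42, 1.23 and 1.46 at ZT12. With 6-OHDA its values were 3.34, 2.12, 1.85 and 1.9 FPKM at ZT0 and 1.82, 2.27, 2.64 and 1.87 at ZT12. All 8 lay above the sham median and 4 above the highest sham library, a difference of 0.62 ± 0.15 (SE) on the log2 scale (limma adjusted p = 0.00522). Ifih1 (ENSMUSG00000026896, chr2:62595798-62646255, minus strand) encodes MDA5, the sensor of long double-stranded RNA. Ifih1 in wild-type sham libraries stood at 0.68, 0.988, 0.787 and 0.76 FPKM at ZT0 and 0.785, 0.759 and 0.703 at ZT12. With 6-OHDA it read 1.5, 1.11, 1.19 and 1.34 FPKM at ZT0 and 1.08, 1.25, 1.11 and 1.08 at ZT12. The groups did not overlap, and the difference was 0.63 ± 0.11 (SE, limma adjusted p = 0.00148). Dhx58, which encodes LGP2, a partner of MDA5, averaged 0.544 ± 0.239 (SD, n = 7) FPKM in sham and 0.844 ± 0.286 (SD, n = 8) in 6-OHDA muscle and did not pass (0.67, limma adjusted p = 0.0621).

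Of the signalling factors Irf9 (ENSMUSG00000002325, chr14:55603571-55610030, plus strand), the DNA-binding partner of STAT2, rose. Irf9 in wild-type sham libraries stood at 2.26, 3.18, 1.77 and 2.2 FPKM at ZT0 and 2.1, 1.52 and 1.89 at ZT12. Its values with 6-OHDA were 3.58, 2.86, 2.77 and 2.58 FPKM at ZT0 and 2.25, 2.93, 2.97 and 2.6 at ZT12. All 8 exceeded the sham median but only 1 the highest sham library, and the difference was 0.45 ± 0.13 (SE, limma adjusted p = 0.0127). Irf7 (ENSMUSG00000025498, chr7:141262706-141266481, minus strand), which drives interferon alpha genes, read 2.41, 3.05, 1.18 and 2.61 FPKM at ZT0 and 2.08, 1.87 and 2.25 at ZT12 in sham libraries. With 6-OHDA it read 5.11, 2.04, 2.04 and 2.19 FPKM at ZT0 and 3.03, 3.97, 4.3 and 3.2 at ZT12. At ZT0 3 of the 4 libraries lay within the sham range and library 1 far above it, whereas at ZT12 all 4 exceeded all 3 sham libraries. The difference of 0.53 ± 0.21 (SE) did not pass (limma adjusted p = 0.0612). Stat2 (ENSMUSG00000040033, chr10:128270559-128292849, plus strand), which IRF9 joins, was the most abundant signalling factor of the list by FPKM, at 3.63, 5.88, 2.5 and 3.51 FPKM at ZT0 and 3.29, 2.56 and 2.87 at ZT12 in sham. In 6-OHDA libraries it was at 6.35, 3.47, 3.43 and 3.41 FPKM at ZT0 and 3.73, 4.42, 4.44 and 3.96 at ZT12, again with library 1 at ZT0 apart. Its difference was 0.31 ± 0.20 (SE), with a 95% interval of -0.11 to 0.74 and a limma adjusted p of 0.234.

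Among the 20 effectors 10 rose, against 18.8% of all genes, all 20 differences were above 0, and the median was 0.57. Bst2 (ENSMUSG00000046718, chr8:71534255-71537456, minus strand) encodes tetherin, which holds budding virus on the cell surface. Bst2 in wild-type sham libraries stood at 16.7, 18.8, 12.4 and 16.9 FPKM at ZT0 and 12.1, 10.6 and 11.4 at ZT12. In 6-OHDA libraries it was at 27.6, 18.8, 19.98 and 19.5 FPKM at ZT0 and 19.6, 25.7, 23.6 and 21.2 at ZT12. Every 6-OHDA library exceeded every sham library, and the difference was 0.69 ± 0.13 (SE, limma adjusted p = 0.00163). Parp14 (ENSMUSG00000034422, chr16:35832874-35871544, minus strand) encodes an ADP-ribosyltransferase. Parp14 in wild-type sham libraries stood at 1.86, 2.58, 1.56 and 2.06 FPKM at ZT0 and 1.92, 1.35 and 1.39 at ZT12. With 6-OHDA the values were 3.86, 2.62, 2.23 and 2.5 FPKM at ZT0 and 2.56, 2.87, 3.1 and 2.71 at ZT12. They exceeded the sham median in 8 of 8 libraries and the highest sham library in 5, with a difference of 0.67 ± 0.13 (SE, limma adjusted p = 0.00215).

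Ifitm3 (ENSMUSG00000025492, chr7:141009586-141010770, minus strand), a membrane protein that blocks virus entry, was the most abundant effector by FPKM. Ifitm3 in wild-type sham libraries stood at 54.1, 82.4, 44.5 and 57.6 FPKM at ZT0 and 51.9, 48.1 and 49.5 at ZT12. Under 6-OHDA it was at 91.2, 83.9, 104 and 79.98 FPKM at ZT0 and 76.1, 93.8, 75.0 and 73.3 at ZT12. Of these 4 exceeded the highest sham library and 8 of 8 the sham median, with a difference of 0.64 ± 0.16 (SE, limma adjusted p = 0.00621). Oas1a (ENSMUSG00000052776, chr5:120896256-120907521, minus strand) encodes an oligoadenylate synthetase, whose product activates RNase L. Oas1a in wild-type sham libraries stood at 0.599, 1.57, 0.412 and 0.964 FPKM at ZT0 and 0.698, 0.786 and 0.73 at ZT12. Its 6-OHDA libraries gave 2.83, 1.33, 1.73 and 1.55 FPKM at ZT0 and 1.46, 2.0, 2.06 and 1.0 at ZT12. The difference, 1.13 ± 0.29 (SE), was the largest of the 38 and rested on a gene with few reads (limma adjusted p = 0.00804, 8 of 8 libraries above the sham median). Lgals3bp (ENSMUSG00000033880, chr11:118392751-118402092, minus strand), a secreted glycoprotein, is also known outside the interferon response. Lgals3bp in wild-type sham libraries stood at 6.76, 9.16, 3.97 and 5.59 FPKM at ZT0 and 4.58, 4.67 and 5.09 at ZT12. Its levels with 6-OHDA were 14.5, 9.08, 8.76 and 7.92 FPKM at ZT0 and 6.81, 11.6, 9.03 and 7.43 at ZT12. The treated libraries exceeded the sham median in 8 of 8 cases, but 2 exceeded the highest sham library, with a difference of 0.76 ± 0.22 (SE, limma adjusted p = 0.0145).

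The other 5 effectors past the test were Usp18, which removes ISG15 and damps the receptor (0.60, adjusted p = 0.0329), Ifit2 of the RNA-binding Ifit family (0.57, adjusted p = 0.0346), Oasl2 (0.75, adjusted p = 0.0238), the mitochondrial nucleotide kinase gene Cmpk2 (0.56, adjusted p = 0.0334) and Eif2ak2, whose product PKR halts translation (0.42, adjusted p = 0.044). Each had at least 1 alternative in which it no longer passed. The remaining 10 effectors did not pass. The ubiquitin-like modifier Isg15 averaged 3.56 ± 1.25 (SD, n = 7) FPKM in sham and 5.31 ± 2.65 (SD, n = 8) in 6-OHDA muscle, with a difference of 0.57 ± 0.27 (SE) and an adjusted p of 0.10. Ifit1 (0.54), Ifit3 (0.44), Oas2 (0.50), the viperin gene Rsad2 (0.38), Xaf1 (0.35) and Ifi44 (0.61) had adjusted p-values from 0.0584 (Ifi44) to 0.189 (Oas2). Rtp4 (0.26), the RIG-I ubiquitin ligase gene Trim25 (0.27) and Ifi35 (0.08) had the smallest differences. Among all 20, Oas2 was at 1.29, 2.8, 0.873 and 1.65 FPKM at ZT0 and 1.5, 0.977 and 1.02 at ZT12 in sham, against 2.98, 1.25, 1.17 and 1.68 FPKM at ZT0 and 1.52, 2.41, 2.69 and 1.97 at ZT12 in 6-OHDA libraries, groups that overlapped at ZT0.

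Of the 5 GTPase genes 2 rose and none fell, against 18.8% and 15.9% of all genes. Gbp3 (ENSMUSG00000028268, chr3:142560026-142573209, plus strand) and Gbp2 (ENSMUSG00000028270, chr3:142620602-142638008, plus strand), guanylate-binding proteins that coat pathogen vacuoles, were the ones that rose. Gbp3 in wild-type sham libraries stood at 3.3, 4.07, 2.7 and 3.19 FPKM at ZT0 and 3.93, 3.97 and 3.12 at ZT12. Its 6-OHDA libraries were at 5.94, 3.99, 4.12 and 5.31 FPKM at ZT0 and 4.68, 5.05, 6.86 and 5.76 at ZT12. Among them 7 of 8 exceeded every sham library, with a difference of 0.57 ± 0.14 (SE, limma adjusted p = 0.00636). Gbp2 in wild-type sham libraries stood at 4.56, 3.89, 4.49 and 4.98 FPKM at ZT0 and 4.98, 4.73 and 4.65 at ZT12. With 6-OHDA Gbp2 was at 6.16, 5.03, 6.23 and 7.12 FPKM at ZT0 and 6.17, 6.36, 6.34 and 6.71 at ZT12, with no overlap between the groups. Its difference was 0.43 ± 0.14 (SE, limma adjusted p = 0.0208). The immunity-related GTPase Igtp (ENSMUSG00000078853, chr11:58199556-58207591, plus strand), the most abundant of the 5 by FPKM, did not pass. Igtp in wild-type sham libraries stood at 8.91, 7.81, 9.59 and 6.55 FPKM at ZT0 and 8.6, 6.16 and 6.24 at ZT12. Its 6-OHDA values of 7.53, 5.3, 8.88 and 7.18 FPKM at ZT0 and 6.83, 7.09, 6.95 and 7.57 at ZT12 overlapped the sham values. The difference was -0.08 ± 0.23 (SE), with an interval of -0.56 to 0.40, and its sign turned to 0.26 with own totals (limma adjusted p = 0.818 as deposited). Irgm1 (0.26, adjusted p = 0.205) and Gbp7 (0.17, adjusted p = 0.32) did not pass either.

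In the antigen presentation group H2-D1 (ENSMUSG00000073411, chr17:35262730-35267499, plus strand), a classical class I heavy chain, stood apart by group. H2-D1 in wild-type sham libraries stood at 44.5, 60.04, 45.4 and 38.3 FPKM at ZT0 and 39.3, 36.5 and 39.7 at ZT12. In 6-OHDA libraries it was at 88.2, 64.8, 87.3 and 69.8 FPKM at ZT0 and 65.8, 81.6, 63.0 and 68.3 at ZT12. No sham library reached the lowest 6-OHDA library, and the difference was 0.79 ± 0.18 (SE, limma adjusted p = 0.00396). The other classical heavy chain gene of the list, H2-K1, rose by 0.51 (adjusted p = 0.0188). Tap1 (ENSMUSG00000037321, chr17:34187553-34197225, plus strand), a subunit of the peptide pump into the endoplasmic reticulum, was at 1.66, 2.07, 1.08 and 1.29 FPKM at ZT0 and 1.15, 1.01 and 1.36 at ZT12 in sham. With 6-OHDA it was at 2.67, 2.04, 1.79 and 1.97 FPKM at ZT0 and 1.79, 2.46, 2.01 and 2.29 at ZT12. All 8 exceeded the sham median and 3 the highest sham library, with a difference of 0.68 ± 0.17 (SE, limma adjusted p = 0.00724). B2m (ENSMUSG00000060802, chr2:122147686-122153083, plus strand), the light chain of every class I molecule, was the most abundant of the 38 genes by FPKM. B2m in wild-type sham libraries stood at 189.7, 225, 225 and 183 FPKM at ZT0 and 148, 161 and 144 at ZT12. Its 6-OHDA values were 245, 191, 250.5 and 279 FPKM at ZT0 and 183, 214, 248 and 218 at ZT12. The libraries overlapped, and the difference of 0.37 ± 0.20 (SE) did not pass (limma adjusted p = 0.154).

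Psmb8 (ENSMUSG00000024338, chr17:34197721-34201454, plus strand) encodes the inducible chymotrypsin-like subunit that takes the place of Psmb5 in the immunoproteasome. Psmb8 in wild-type sham libraries stood at 1.79, 2.63, 2.31 and 1.67 FPKM at ZT0 and 1.65, 1.64 and 1.38 at ZT12. In 6-OHDA muscle it was at 2.6, 2.59, 3.01 and 2.52 FPKM at ZT0 and 2.18, 2.72, 2.64 and 3.03 at ZT12. All 8 exceeded the sham median and 4 the highest sham library, with a difference of 0.56 ± 0.14 (SE, limma adjusted p = 0.00701). Psmb9 (0.25, adjusted p = 0.32) and Psmb10 (0.23, adjusted p = 0.192), which take the places of Psmb6 and Psmb7, did not pass. Their constitutive counterparts were far more abundant, with Psmb5 at 126 ± 10.3 FPKM (SD, n = 7) in sham and 102 ± 11.3 (SD, n = 8) in 6-OHDA muscle. Psmb5, Psmb6 and Psmb7 passed as lower, with log2 differences of -0.30, -0.46 and -0.56 (limma adjusted p = 0.0474, 0.018 and 0.023), but with own totals the values were 0.03, -0.12 and -0.22 and none passed. A ratio within a library does not depend on such scaling.

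Each inducible subunit was higher relative to its constitutive counterpart in wild-type 6-OHDA muscle. Psmb9 and Psmb10 did not pass by themselves, whereas Psmb6 and Psmb7 passed as lower in the deposited scaling. Their ratios therefore do not show a rise of Psmb9 or Psmb10. Psmb8 stood at 0.0149 ± 0.00314 (SD, n = 7) of the Psmb5 level in sham and 0.0263 ± 0.004 (SD, n = 8) in 6-OHDA muscle, and the lowest 6-OHDA library (0.0207) exceeded the highest sham library (0.02). The change was 1.82-fold on the geometric mean of both times, with an exact two-sided permutation p of 0.000408 within times, the smallest that 2450 arrangements allow, and 0.00245 adjusted over 6 such tests. Psmb9 over Psmb6 went from 0.0149 ± 0.00522 (SD, n = 7) to 0.0236 ± 0.0051 (SD, n = 8), 1.64-fold, with overlapping groups (exact permutation p = 0.00612, adjusted 0.0122). Psmb10 over Psmb7 went from 0.0526 ± 0.00981 (SD, n = 7) to 0.09 ± 0.0149 (SD, n = 8), 1.73-fold, again with overlap, since the lowest 6-OHDA library (0.0634) lay below the highest sham library (0.0676; exact permutation p = 0.000816, adjusted 0.00245). In RE-RE muscle the same ratios differed 1.73-fold, 1.58-fold and 1.69-fold between 4 and 4 libraries. Their exact permutation p-values were 0.0556, 0.222 and 0.111 (adjusted 0.0833, 0.222 and 0.133), where 36 arrangements allow no p under 0.0556.

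**Figure D2:**
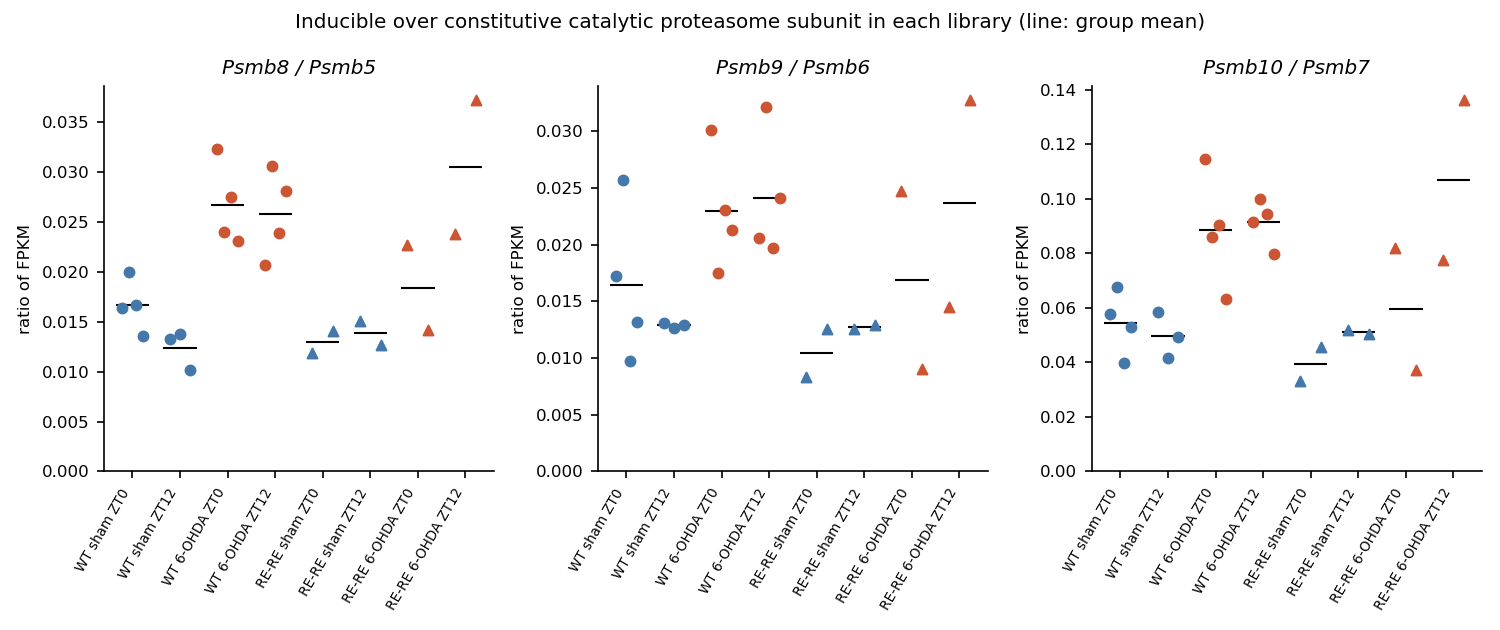
Ratio of FPKM of each inducible catalytic subunit to its constitutive counterpart in every library (blue sham, red 6-OHDA, circles wild-type, triangles RE-RE, lines group means). For Psmb8 over Psmb5 all 8 wild-type 6-OHDA libraries lie above all 7 wild-type sham libraries, while for Psmb9 over Psmb6 and Psmb10 over Psmb7 the groups overlap.

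Some of the wild-type calls depended on single libraries. Without wild-type 6-OHDA ZT0 library 1 the count of genes that passed was 15, and without it and wild-type sham ZT0 library 2 it was 18. Leaving out each wild-type library in turn gave 14 to 23. Of the 19 genes 14 passed in every one of those fits, namely Ddx58, Ifih1, Irf9, Oas1a, Bst2, Ifitm3, Parp14, Lgals3bp, Gbp2, Gbp3, Psmb8, Tap1, H2-K1 and H2-D1, and all of these except Gbp2 and H2-K1 passed under each other setting in which they were tested. The stricter filter left out Ddx58, Ifih1, Oas1a and Tap1, so they had 11 such settings in place of 12. Usp18, Ifit2, Oasl2, Cmpk2 and Eif2ak2 failed the test in at least 1 of the fits without a library. The mean log2 level of the 38 genes, relative to the wild-type sham mean, ran from -0.24 to 0.48 in wild-type sham libraries and from 0.27 to 0.95 in 6-OHDA libraries. Library 1 gave the 0.95 and sham library 2 the 0.48.

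**Figure D3:**
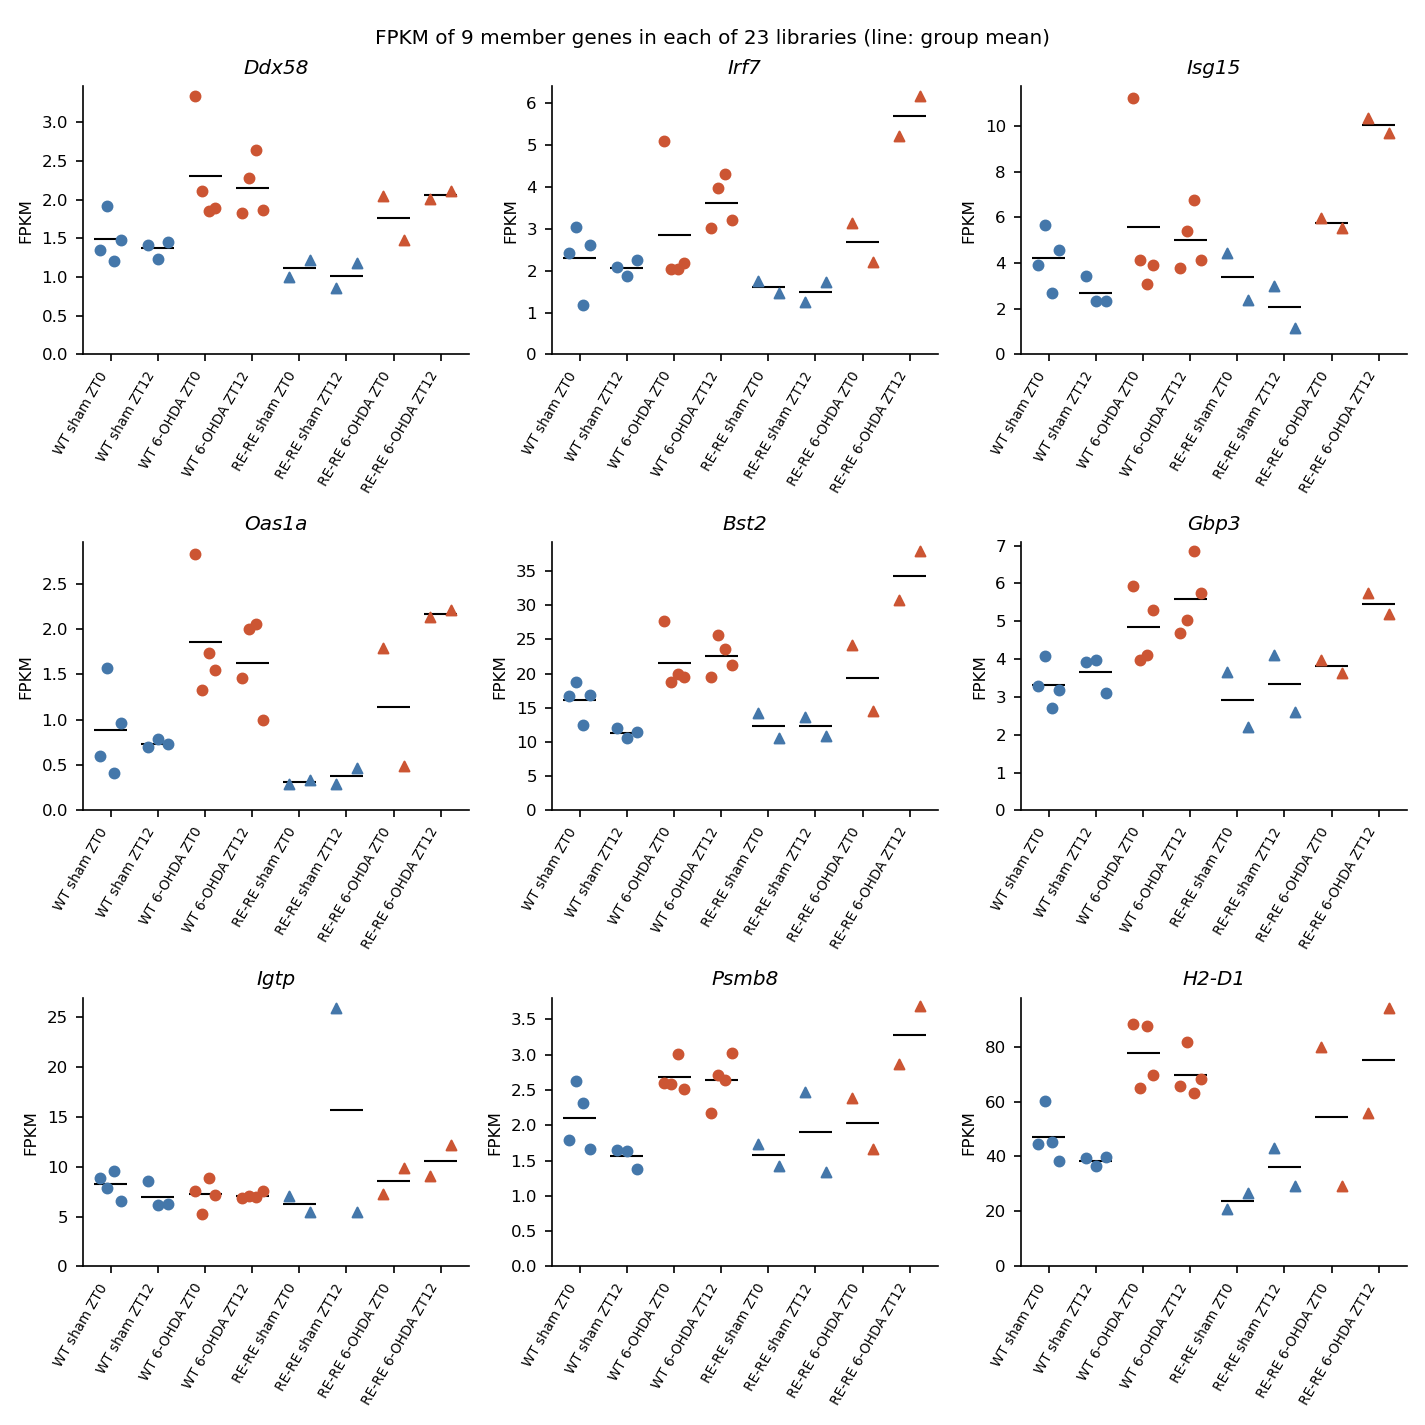
FPKM of 9 of the genes in each of the 23 libraries (blue sham, red 6-OHDA, circles wild-type, triangles RE-RE, lines group means, every axis from 0). Bst2 and H2-D1 separate wild-type sham from 6-OHDA libraries, Irf7 and Isg15 have 1 wild-type 6-OHDA library at ZT0 far above its group (5.11 and 11.2 FPKM), and Igtp has 1 RE-RE sham library at 25.9 FPKM.

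Time of sampling was examined next, since the groups were taken at lights on and lights off. At ZT0 alone 6 genes passed as higher with 6-OHDA (Ddx58, Ifih1, Oas1a, Ifitm3, Gbp3 and H2-D1) against 13.6% of all genes, with a median of 0.38. At ZT12 alone none passed against 0.0156% of all genes in either direction, although the median was 0.62 and all 38 differences were above 0. An unadjusted p under 0.05 (limma) was reached there by 19 of the 38 genes and by 2623 of all 12820. limma-voom on recovered reads also called 0 at ZT12, with 23 at an unadjusted p under 0.05, whereas the fit of the ZT12 wild-type groups alone called 29 of the 38 (1962 genes higher and 1424 lower in all). At ZT12 every 6-OHDA library exceeded every sham library for 32 of the 38 genes, against 20.6% of all genes, and at ZT0 for 5, against 16%. Over both times this held for Ifih1, Bst2, Gbp2 and H2-D1, against 8.03% of all genes. The change of the 6-OHDA effect between times had a median of 0.25, and no member passed against 0.0078% of all genes (limma, 1 at an unadjusted p under 0.05), so a difference between the times was not shown. Without library 1 the ZT0 count was 1, and it was also 1 without sham ZT0 library 1, 3 or 4 and 2 without 6-OHDA ZT0 library 3.

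Within a treatment no gene of the list passed the test between ZT0 and ZT12. In wild-type sham muscle 0 of 38 passed against 0.647% of all genes (limma, 1 at an unadjusted p under 0.05, median -0.22), the one being Bst2 at -0.49 ± 0.19 (SE). There 34 of the 38 differences were nonetheless below 0, with 4 above 0, whereas 48.1% of all genes had a value above 0. The 38 genes share the same 7 libraries, so their signs are not separate observations. Mean levels of the list were 0.026, 0.482, -0.235 and 0.078 in the ZT0 sham libraries and -0.176 to -0.007 at ZT12. The 0.482 is library 2, the highest of its 4 for 32 of the 38 genes (31.5% of all genes tested). For Eif2ak2, Bst2, Psmb8 and B2m every ZT12 sham library lay below every ZT0 sham library, against 6.5% of all genes. B2m was at 183 to 225 FPKM at ZT0 and 144 to 161 at ZT12. In 6-OHDA muscle 0 passed against 0.671% (limma, 1 at an unadjusted p under 0.05, median 0.04), the one being Ifi35 at 0.32 ± 0.14 (SE). Array weights called 1 and 2 genes in these comparisons. In RE-RE sham muscle 0 passed against 0.0546% (limma, median 0.12), with 2 of 38 at an unadjusted p under 0.05 against 659 of all 12820 genes. In RE-RE 6-OHDA muscle 0 passed against 0.109%, with a median of 0.49. At an unadjusted p under 0.05 (limma) were 8 of the 38 genes and 1700 of all 12820. There Bst2 read 24.2 and 14.5 FPKM at ZT0 and 30.8 and 37.9 at ZT12, and Irf7 3.15 and 2.21 FPKM at ZT0 and 5.21 and 6.16 at ZT12. The differences of Bst2 and Irf7 were 0.87 ± 0.25 (SE) and 1.10 ± 0.41 (SE, limma adjusted p = 0.16 and 0.274). The second ZT0 library, library 2, had the lowest mean level of the 38 genes among the RE-RE 6-OHDA libraries (0.11). limma-voom called none in any of these 4 comparisons.

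In RE-RE muscle 22 of the 38 genes passed as higher with 6-OHDA and none as lower, under the spread shared with wild-type libraries. All genes passed at 11.9% as higher and 15% as lower, and the median was 0.69 for the list and -0.02 for all genes. When only RE-RE libraries were fitted none passed, with 19 at an unadjusted p under 0.05 (2 genes passed in the whole table). The count was also 0 with array weights (14 at an unadjusted p under 0.05), with age as a covariate (26) and without RE-RE 6-OHDA ZT12 library 4. It was 1 without 6-OHDA ZT0 library 1, 7 without sham ZT0 library 1 and 8 without sham ZT12 library 3, while limma-voom on recovered reads called 21. Own totals called 32, with 4001 genes higher and 476 lower in place of 1522 and 1924. The RE-RE sham mice were also younger than all RE-RE 6-OHDA mice, so that age and treatment cannot be told apart within this genotype. Every RE-RE 6-OHDA library exceeded every sham library for 12 of 38 genes (Ddx58, Irf7, Irf9, Isg15, Ifit3, Oas1a, Oas2, Oasl2, Cmpk2, Bst2, Xaf1 and Parp14), against 2.7% of all genes. The 19 genes of wild-type and the 22 of RE-RE muscle had 14 in common (14 of 19 and 14 of 22). The overlap over all genes was not computed, so the 14 are not read as agreement between the genotypes.

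The Oas genes had the largest differences in RE-RE muscle, on few reads. The lowest counts over the 23 libraries were 8 reads for Oas1a, 20 for Oas2, 48 for Oasl2 and 19 for Isg15. Oas1a read 0.295 and 0.339 FPKM at ZT0 and 0.287 and 0.473 at ZT12 in sham, against 1.79 and 0.491 FPKM at ZT0 and 2.13 and 2.21 at ZT12 in 6-OHDA libraries. The groups did not overlap, and 1 library at ZT0 lay close to the sham level. The difference was 2.03 ± 0.40 (SE, limma adjusted p = 0.010). Oas2 (ENSMUSG00000032690, chr5:120730333-120749853, minus strand), another synthetase, read 0.313 and 0.92 FPKM at ZT0 and 0.401 and 0.812 at ZT12 in sham, against 1.83 and 0.957 FPKM at ZT0 and 3.1 and 2.51 at ZT12 in 6-OHDA libraries, a difference of 1.77 ± 0.39 (SE, limma adjusted p = 0.0138). Oasl2 followed at 1.75 ± 0.33 (SE) and Isg15 at 1.61 ± 0.36 (SE). Isg15 read 4.42 and 2.37 FPKM at ZT0 and 3.0 and 1.18 at ZT12 in sham, against 5.97 and 5.51 FPKM at ZT0 and 10.3 and 9.68 at ZT12 in 6-OHDA libraries, with all 4 treated libraries above all 4 sham libraries. Bst2 was at 14.2 and 10.6 FPKM at ZT0 and 13.7 and 10.9 at ZT12 in sham against the 6-OHDA values above, with the smallest adjusted p of the list (1.05 ± 0.18 SE, limma adjusted p = 0.0055).

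The signalling factors and sensors of RE-RE muscle showed the same separation in part. Irf7 read 1.75 and 1.47 FPKM at ZT0 and 1.25 and 1.74 at ZT12 in sham, below all 4 of its 6-OHDA values (1.32 ± 0.29 SE, limma adjusted p = 0.0133). Irf9 read 1.76 and 1.88 FPKM at ZT0 and 1.84 and 1.74 at ZT12 in sham, against 2.6 and 2.13 FPKM at ZT0 and 2.6 and 3.54 at ZT12 in 6-OHDA libraries. Stat2 read 1.04 and 2.47 FPKM at ZT0 and 1.81 and 3.08 at ZT12 in sham, against 3.36 and 2.9 FPKM at ZT0 and 4.83 and 4.75 at ZT12 with 6-OHDA, with 3 of 4 above the highest sham library. These differences were 0.57 ± 0.17 (SE) and 0.99 ± 0.27 (SE). Ddx58 read 0.998 and 1.22 FPKM at ZT0 and 0.859 and 1.18 at ZT12 in sham, against 2.05 and 1.48 FPKM at ZT0 and 2.01 and 2.11 at ZT12 in 6-OHDA libraries, without overlap, and Ifih1 read 0.998 and 0.945 FPKM at ZT0 and 0.875 and 0.817 at ZT12 in sham, against 1.31 and 1.15 FPKM at ZT0 and 0.973 and 1.2 at ZT12 with 6-OHDA, with overlap. Ddx58 passed (0.84 ± 0.20 SE) and Ifih1 did not (0.34 ± 0.16 SE, limma adjusted p = 0.096).

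Among the other effectors Parp14 read 1.32 and 1.72 FPKM at ZT0 and 1.52 and 1.8 at ZT12 in RE-RE sham, against 2.43 and 2.62 FPKM at ZT0 and 2.15 and 2.24 at ZT12 in 6-OHDA libraries (0.58 ± 0.18 SE). Ifitm3 read 70.5 and 37.4 FPKM at ZT0 and 65.8 and 39.6 at ZT12 in sham, against 84.6 and 50.5 FPKM at ZT0 and 106 and 120.1 at ZT12 with 6-OHDA (0.75 ± 0.22 SE). Lgals3bp read 3.28 and 7.49 FPKM at ZT0 and 4.35 and 6.48 at ZT12 in sham, against 10.8 and 6.67 FPKM at ZT0 and 8.23 and 16.5 at ZT12 with 6-OHDA (0.95 ± 0.30 SE). Parp14 separated the groups, whereas for Ifitm3 and Lgals3bp 6-OHDA ZT0 library 2 fell within the sham range. Usp18, Ifit1, Ifit2, Rsad2, Eif2ak2, Rtp4, Ifi35 and Ifi44 did not pass in RE-RE muscle.

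Of the GTPases 1 of 5 passed as higher in RE-RE muscle, against 11.9% of all genes. Gbp3 read 3.67 and 2.19 FPKM at ZT0 and 4.11 and 2.6 at ZT12 in sham, against 3.98 and 3.65 FPKM at ZT0 and 5.75 and 5.19 at ZT12 in 6-OHDA libraries (0.58 ± 0.19 SE, limma adjusted p = 0.0364). Gbp2 read 6.39 and 3.12 FPKM at ZT0 and 6.28 and 3.88 at ZT12 in sham, against 6.02 and 5.04 FPKM at ZT0 and 6.38 and 5.11 at ZT12 with 6-OHDA, and Igtp read 7.09 and 5.48 FPKM at ZT0 and 25.9 and 5.48 at ZT12 in sham, against 7.23 and 9.82 FPKM at ZT0 and 9.03 and 12.2 at ZT12 with 6-OHDA. Sham ZT12 library 3 stood apart for Igtp, at 25.9 against 5.48 FPKM in the other library of its group. Leaving out that other library turned Irgm1, Igtp, Psmb10 and B2m below 0, to -0.24, -0.43, -0.12 and -0.086. Gbp7 was the 1 gene of the list with a value below 0 (-0.21 ± 0.18 SE), a sign that turned with own totals and with age as a covariate.

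In the antigen presentation group of RE-RE muscle 4 of 7 passed as higher, against 11.9% of all genes. They were the same genes as in wild-type muscle (Psmb8, Tap1, H2-K1 and H2-D1), but none passed when RE-RE libraries were fitted alone. H2-D1 read 20.9 and 26.7 FPKM at ZT0 and 43.2 and 29.2 at ZT12 in sham, against 79.8 and 29.1 FPKM at ZT0 and 55.9 and 94.0 at ZT12 in 6-OHDA libraries (1.03 ± 0.24 SE). Tap1 read 0.623 and 0.732 FPKM at ZT0 and 0.879 and 1.0 at ZT12 in sham, against 1.69 and 0.871 FPKM at ZT0 and 1.57 and 2.73 at ZT12 with 6-OHDA (0.99 ± 0.24 SE). Psmb8 read 1.73 and 1.42 FPKM at ZT0 and 2.47 and 1.34 at ZT12 in sham, against 2.39 and 1.66 FPKM at ZT0 and 2.86 and 3.68 at ZT12 with 6-OHDA (0.59 ± 0.19 SE). All 3 overlapped between the groups, through 6-OHDA ZT0 library 2 and, for Psmb8, sham ZT12 library 3. B2m read 186 and 96.8 FPKM at ZT0 and 304 and 99.3 at ZT12 in sham, against 209 and 122 FPKM at ZT0 and 239 and 214 at ZT12 with 6-OHDA, with no 6-OHDA library above the highest sham library (0.32 ± 0.27 SE, limma adjusted p = 0.357).

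Between genotypes in sham muscle 2 of the 38 genes (5.26%) passed as lower in RE-RE and none as higher, against 5.17% and 4.74% of all genes. The count of lower genes was thus at the background. On the log2 scale, RE-RE minus wild-type, Oas2 differed by -1.23 ± 0.35 (SE, limma adjusted p = 0.0382) and Tap1 by -0.71 ± 0.21 (SE, limma adjusted p = 0.0419). The median of the list was -0.19. An unadjusted p under 0.05 (limma) was reached by 11 of the 38 genes and by 4083 of all 12820, so the list's share was not above the background. All 4 RE-RE sham values of Tap1 lay below the lowest wild-type sham value, though narrowly (highest 1.003 against lowest 1.006 FPKM), and for Oas2 3 of 4 did. The share of all genes with such a separation was not computed. No gene passed with log2(FPKM + 1), the stricter filter, quantile normalization, array weights, age, the sham groups alone, limma-voom or without the 2 wild-type libraries named above. Own totals called 1, and moved the split of all genes from 608 higher and 663 lower to 247 and 738. The RE-RE sham mice were younger than all wild-type sham mice (10 to 11 weeks against 12 to 18), so that age and genotype cannot be told apart in sham muscle. In 6-OHDA muscle no member passed between genotypes (limma, 0 at an unadjusted p under 0.05, median -0.03) against 0.226% of all genes, and limma-voom called none either.

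Whether 6-OHDA acted on these genes differently by genotype was tested as the difference of the 2 effects. No member passed against 0.0702% of all genes (limma), and limma-voom called none either. An unadjusted p under 0.05 (limma) was reached by 4 of the 38 genes and by 1895 of all 12820, a share not above the background. The median was 0.21 higher in RE-RE. The smallest adjusted p-values were those of Oas2 (1.28 ± 0.49 SE, 95% interval 0.25 to 2.30, adjusted p = 0.262), Oasl2 (1.0 ± 0.41 SE, adjusted p = 0.279) and Isg15 (1.04 ± 0.45 SE, adjusted p = 0.296). For Psmb8 the difference was 0.03 ± 0.24 (SE), with an interval of -0.48 to 0.53.

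Other genes of the pathway were taken from lists outside the 38. Of 42 further interferon-induced genes tested 19 rose in wild-type muscle and none fell, with a median of 0.44, led by Dtx3l (0.60), Shisa5 (0.94), Slfn8 (1.64) and Ifitm2 (0.65). Of 10 further GTPases 2 rose, Gbp10 (1.63) and Ifi47 (0.70), a share near the 18.8% of all genes, and the median was 0.17. Of 10 nucleic acid sensors and adaptors 8 rose, among them Unc93b1, which carries endosomal Toll-like receptors (1.41), Myd88 (0.56), Tmem173, which encodes STING (0.66), and Tlr3 (0.70). Of 21 receptors and signalling genes 10 rose and 1 fell, against 15.9% of all genes that passed as lower. The type I receptor genes Ifnar1 (0.61) and Ifnar2 (0.86), the feedback inhibitor Socs3 (1.20) and Stat3 (0.63) were higher, and Ifngr2, a subunit of the interferon gamma receptor, was lower (-0.42, limma adjusted p = 0.0286). None of the 7 interferon ligand genes of the list was analysed here.

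In wild-type muscle, where 18.8% of all genes passed as higher and 15.9% as lower, 6 of 20 further class I presentation genes rose and none fell (median 0.26). For class II 7 of 7 rose (median 1.29), with the lysosomal protease gene Ctss at 2.96 and the invariant chain gene Cd74 at 1.36. The constitutive proteasome core had 0 higher and 5 lower of 14 (Psmb3, Psmb5, Psmb6, Psmb7 and Psma7), with a median of -0.32 that was 0.01 with own totals, where none passed. In RE-RE muscle the counts were 22 higher of 42 interferon-induced genes, 2 of 10 GTPases, 6 of 10 sensors, 7 of 21 receptors and signalling genes with 3 lower, 8 of 20 class I genes with 1 lower, 0 of 7 class II genes, and 0 higher with 1 lower of the proteasome core. All genes passed at 11.9% as higher and 15% as lower, so the counts for GTPases and for lower signalling genes were near the background. Each of these counts was 0 when RE-RE libraries were fitted alone.

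Markers of other cells moved with treatment as well. Among all genes 18.8% passed as higher and 15.9% as lower in wild-type muscle, and 11.9% as higher in RE-RE muscle. In wild-type muscle 13 of 14 macrophage markers rose (median 2.19), and their summed level was 28.1 to 74.8 FPKM in sham and 158 to 558 FPKM in 6-OHDA libraries. None of the 14 was at 0 in every library. In RE-RE muscle 0 of 14 passed, and the sums were 33.4 to 103.8 and 20.7 to 345 FPKM. RE-RE 6-OHDA ZT0 library 2 had the lowest macrophage sum of all 23 libraries, 20.7 FPKM. Its mean level of the 38 genes was 0.11, against -0.41 to -0.13 in the 4 RE-RE sham libraries, and it differed by role. Effectors were at 0.28 (RE-RE sham libraries -0.41 to -0.25), GTPases at 0.25 (-0.38 to 0.78) and sensors at 0.25 (-0.43 to 0.11). Signalling factors were at -0.04 (RE-RE sham libraries -0.73 to -0.22) and immunoproteasome and antigen presentation genes at -0.46 (-0.61 to 0.34). Fibro-adipogenic markers rose in wild-type muscle for 6 of 7 (summed 151 to 347 FPKM in sham, 471 to 1331 in 6-OHDA), and markers of satellite and regenerating muscle cells for 5 of 7 (25.7 to 42.7 and 42.1 to 165 FPKM). In RE-RE muscle 0 of 7 fibro-adipogenic markers passed (median 0.46). Satellite and regenerating markers passed as higher there for 5 of 7 (median 3.5, against 1.99 in wild-type), under the shared spread. Endothelial markers passed as higher for 1 of 9 in wild-type (101 to 191 FPKM in sham, 137 to 197 in 6-OHDA), a share not above that of all genes. In RE-RE muscle 5 of 9 passed (64.1 to 139 and 135 to 169) under the spread shared with wild-type libraries. Only 2 genes of the whole table passed when RE-RE libraries were fitted alone. Fast fibre markers, which define the labelled tissue, were abundant in every library (39440 to 80930 FPKM summed), and 5 of 8 passed as lower in wild-type 6-OHDA muscle, with a median of -0.67 that turned to 0.14 with quantile normalization. Of the T and NK cell markers 3 of 14 were analysed here, at 0.402 to 0.754 FPKM in wild-type sham and 0.454 to 1.96 in 6-OHDA libraries. The part of any of these cells in the values of the 38 genes was not tested.

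**Figure D4:**
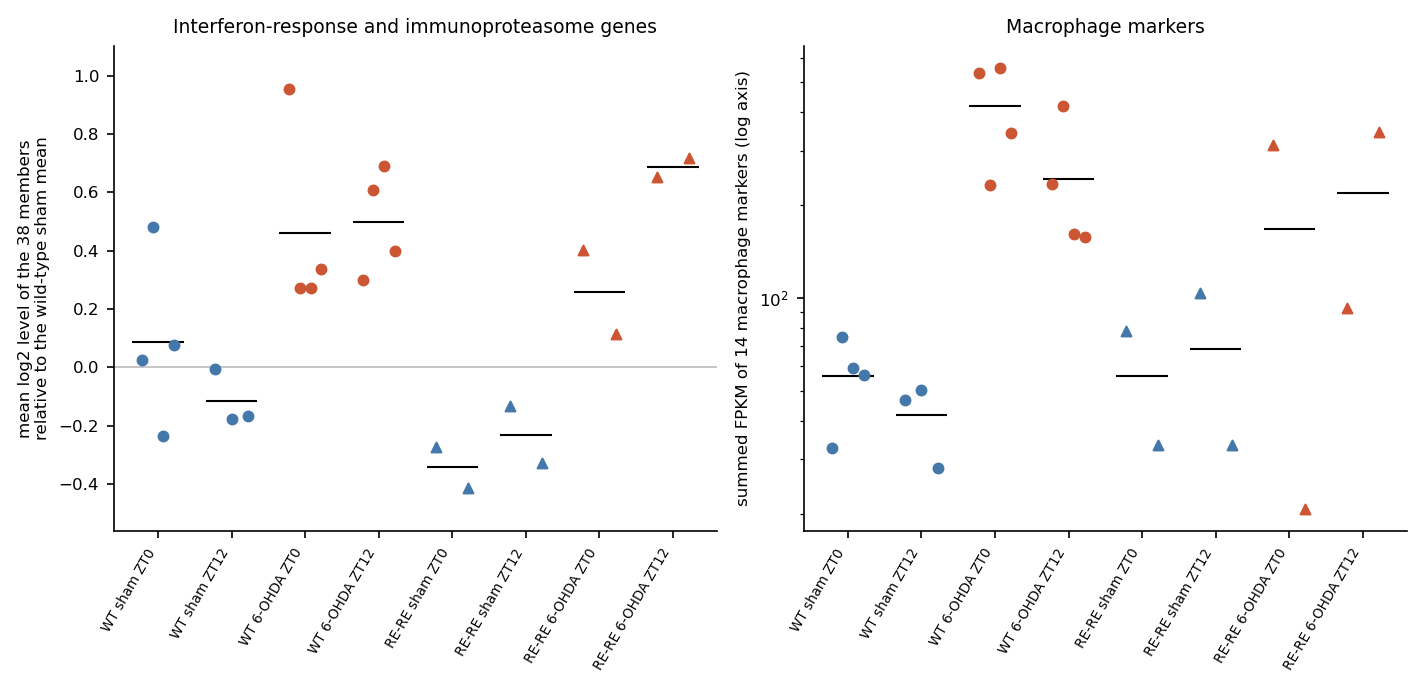
Left, mean log2 level of the 38 genes in each library relative to the wild-type sham mean. Right, summed FPKM of 14 macrophage markers in the same libraries on a log axis (blue sham, red 6-OHDA, circles wild-type, triangles RE-RE, lines group means). The marker sums of the wild-type 6-OHDA libraries (158 to 558 FPKM) all lie above those of sham (28.1 to 74.8 FPKM), while the gene levels overlap through 1 sham library at 0.48. The lowest marker sum (20.7 FPKM) belongs to 1 RE-RE 6-OHDA library at ZT0. Its gene level was 0.11 over all 38 genes (RE-RE sham libraries -0.41 to -0.13) and -0.46 over the immunoproteasome and antigen presentation genes (-0.61 to 0.34). The part of macrophages in the gene levels was not tested.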

How the data were processed

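The submitters' processing notes name, with versions, HISAT2 (2.1.0), featureCounts (1.6.2), Trim Galore (0.5.0), FastQC (0.11.8) and edgeR (3.30.0), and the build GRCm38. The authors deposited 1 table of log2(FPKM + 0.01), whose lowest value, -6.64, stands for an FPKM of 0. How libraries were scaled against each other is not given in the sources used here. FPKM levels in the text were computed back from the deposited log2 values. Gene models were those of GENCODE M21, and promoter windows those of RefSeq on GRCm38.p6.

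Every gene that reached 1 FPKM in 2 or more of the 23 libraries (12820) entered limma (version 3.58.1, R 4.3.3), which estimated a mean for each of the 8 groups and a single residual spread, with a trended eBayes step. The threshold was an adjusted p (Benjamini-Hochberg, all 12820 genes) of 0.05. Whole reads were recovered from the deposited FPKM steps: 86.6% to 94.8% of values of up to 20 reads lay within 0.1 of a whole read, and 261 to 520 genes were at 0. For subunit ratios, treatment labels were exchanged within times in an exact permutation test (two-sided). The model was tested on simulated data. Python 3.11.15 was used with pandas 2.3.3, matplotlib 3.10.9 and numpy 2.4.6.

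In each role the genes shown library by library are the 2 (for effectors, 5) with the smallest p for 6-OHDA in wild-type muscle, the most abundant one, and any that passed for time, genotype or an interaction. Outside the 38 they are Psmb5, Psmb6 and Psmb7 and up to 4 genes of smallest p in each pathway list. Isg15, Irf7 and others were named beyond that rule after their values were seen. The 38 genes and all lists were chosen with earlier results of these data known. Replicate numbers were not taken to pair the libraries.

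Other settings tried were a pseudocount of 1, no filter, a stricter filter (mean log2 FPKM of 1 or more), quantile normalization, scaling to own totals, array weights, age, the replicate block, only the groups compared, and leaving out libraries. limma-voom on recovered reads and the fit without both wild-type ZT0 libraries named in the text were chosen after seeing the data. Isoforms, proteins and raw reads were not analysed here, and the labels name no batch.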

Additional observations from a re-analysis of the deposited data

Results flagged for a closer look

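In 11 of 114 sets of 4 wild-type libraries (38 genes in each of the 3 groups with 4 libraries), the highest or lowest library stood farther from the others than Dixon's 95% limit. Chance gives about 1 in 20 for independent normal values. These sets share the same libraries and the share over all genes was not computed, so the count is not read as a trait of these genes. Library 1 of wild-type 6-OHDA muscle at ZT0 gave 6 of the 11, with Irf7 at 5.11 FPKM (the other 3 at 2.04 to 2.19), Stat2 at 6.35 (3.41 to 3.47), Isg15 at 11.2 (3.08 to 4.12), Ifit2 at 4.96 (1.76 to 1.97), Eif2ak2 at 2.69 (1.42 to 1.59) and Bst2 at 27.6 (18.8 to 19.98). Of these Irf7, Stat2 and Isg15 did not pass the test of 6-OHDA in wild-type muscle. In library 3 of that group Psmb8 was at 3.01 FPKM (2.52 to 2.60).

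At ZT12 library 6 of wild-type 6-OHDA muscle was high for Ifitm3, at 93.8 FPKM (73.3 to 76.1), and for Trim25, at 4.96 (4.07 to 4.2). Library 5 was low for the GTPase genes Gbp7, at 2.63 (3.08 to 3.17), and Irgm1, at 3.2 (4.08 to 4.24).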

How the results depend on the processing

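Counts are genes of the 38 past the test. For 6-OHDA in wild-type muscle (19) a mean log2 FPKM of at least 1 gave 12 of the 25 genes it kept, own totals 35, and leaving out 1 library 14 to 23. At ZT0 (6) the same filter gave 3, own totals 20, array weights 14, the replicate block 3, the fit without 6-OHDA library 1, or without it and sham library 2, 1, and leaving out 1 library 1 to 9. At ZT12 (0) array weights gave 27 and the compared groups alone 29. In RE-RE muscle (22) array weights, age and the compared groups alone gave 0, and leaving out 1 library 0 to 22. Genotype in sham muscle (2) gave 0 with log2(FPKM + 1), the stricter filter, quantile normalization, array weights, age, the compared groups, limma-voom and without both wild-type ZT0 libraries, 1 with own totals, and 0 to 10 leaving out 1 library. Leaving out 1 library gave 0 to 1 for genotype in 6-OHDA muscle, 0 to 2 for time in RE-RE sham, 0 to 5 for time in RE-RE 6-OHDA and 0 to 1 for the change with genotype. Array weights gave 1 for time in wild-type sham and 2 in wild-type 6-OHDA muscle. Log2 differences changed sign for Igtp in wild-type muscle with own totals (0.26) and leaving out 1 library (-0.13 to 0.00099, without sham ZT12 library 5), and for Gbp7 in RE-RE muscle with own totals (0.17) and age (0.023). Leaving out 1 library in RE-RE muscle gave -0.0020 to 0.51 for Gbp2 (below 0 without sham ZT0 library 2), -0.24 to 0.46 for Irgm1 (-0.034 without that library), -0.43 to 0.68 for Igtp, -0.12 to 0.42 for Psmb10 and -0.086 to 0.72 for B2m. These last 4 were lowest without RE-RE sham ZT12 library 4, where the lone library 3 is assumed to vary like the other groups. The cause was not tested.

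Counts over all genes moved by more than 1.5 times as well. For 6-OHDA in wild-type muscle (4458) array weights gave 7611. At ZT0 (3055) the stricter filter gave 2025, own totals 4662, array weights 6192, the fit without 6-OHDA library 1 699 and without it and sham library 2 664. At ZT12 (2) array weights gave 4889, the compared groups 3386, age 4, and the stricter filter, quantile normalization, own totals and limma-voom 1. In RE-RE muscle (3446) array weights gave 0, age 3 and the compared groups 2. Genotype in sham muscle (1271) gave 760 with quantile normalization, 0 with array weights, 67 with age, 78 with the compared groups, 370 without both wild-type ZT0 libraries and 287 without RE-RE sham libraries 1 and 3 and RE-RE 6-OHDA library 2. Genotype in 6-OHDA muscle (29) gave 47 with own totals, 11 with array weights and 45 without those 3 RE-RE libraries. Time gave, in wild-type sham muscle (83), 706 with array weights and 51 without both wild-type libraries, and in wild-type 6-OHDA muscle (86), 1603 with array weights, 134 with the compared groups, 34 with age, 44 without library 1 and 38 without both. In RE-RE sham muscle (7) and RE-RE 6-OHDA muscle (14) time gave 0 to 23 and 0 to 30. The change of the effect with time (1) gave 0 to 27 and that with genotype (9) 0 to 46.

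Same-numbered libraries correlated at -0.12 to 0.17 in their deviations, over 0.1 in 4 of 11 pairs, and 1 of 11 pairs had equal ages, so the numbers were not taken to pair them. The 4 were all 4 RE-RE pairs (0.10 at ZT0 and 0.17 at ZT12), where 2 libraries per group give both pairs of a time the same value and no pair had equal ages. The replicate block gave 16 genes for 6-OHDA in wild-type muscle, 3 at ZT0 and 18 in RE-RE muscle. It was not run for time or genotype, where numbers are nested in the groups.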

Other observations

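Library 3 of RE-RE sham muscle at ZT12 was the highest of the 23 libraries for 4 genes of the list, Irgm1, Igtp, Psmb10 and B2m. It was also the highest of the 23 for 19.7% of all genes tested, the largest such share of any library. Its high values are therefore not read as a trait of these genes. Igtp was at 25.9 FPKM there against 5.48 in library 4 of its group, and B2m at 304 against 99.3. Its mean GTPase level was 0.78 on the log2 scale above the wild-type sham mean, the highest of the 23 libraries, while its signalling factors were at -0.60 and its effectors at -0.41. Library 2 of RE-RE 6-OHDA muscle at ZT0 had effectors at 0.28 and GTPases at 0.25 but immunoproteasome and antigen presentation genes at -0.46. The -0.46 was below every wild-type library (-0.21 to 0.57) but within the range of RE-RE sham libraries (-0.52, -0.61, 0.34 and -0.53).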
